A study of Mus musculus with 10 samples.

Results

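The elastic fibre genes are the gene of elastin (Eln) and 9 genes whose products build, bridge or cross-link elastic fibres (Fbn1, Fbn2, Mfap5, Mfap4, Fbln5, Efemp2, Emilin1, Lox and Loxl1). The genes were chosen by their known roles, with earlier results of these data in view. Of the probesets that carry a gene's symbol alone, the one selected on the highest mean over the 10 arrays stands for the gene. Each of the 8 genes measured had 1 such probeset, so the measured mean decided nothing. Fbn1 and Efemp2 were not analysed here. The 8 genes are 8 of 19938 with a probeset of their own, in a table of 35557 probesets.

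RNA was taken on day 9 from mouse embryonic fibroblasts (MEFs), which in every group were wild type, had received 1000 rad and no longer divided. In MEFs + ALL + nilotinib (3 arrays), murine precursor B lymphoblasts of the line 8093, which came from a Bcr/Abl transgenic mouse, grew above a Transwell membrane over the MEFs in 16 nM nilotinib, an inhibitor of the Abl kinase. In MEFs + ALL + DMSO (1 array), the same lymphoblasts were given the solvent. MEFs + nilotinib (3 arrays, 16 nM) and MEFs + DMSO (3 arrays) had no lymphoblasts, and no membrane is stated for them. Differences between groups with and without lymphoblasts, called the ALL effect below, may thus include those of the membrane. The design cannot tell these apart. Each array holds 1 dish, and the replicates are dishes of MEFs, so p-values measure the spread between dishes. The lymphoblasts are 1 cell line, and other dishes of the ALL + DMSO arm were dropped by the study because lymphoblasts had got into them.

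Fibroblasts secrete elastin as soluble tropoelastin, which is gathered on a scaffold of fibrillin microfibrils and then joined into an insoluble, stretchable network. Fibulins and EMILIN proteins help to place it there, and lysyl oxidases, which depend on copper, cross-link it through its lysines. Elastin is made mostly in late fetal and early postnatal tissue by fibroblasts and smooth muscle cells, and it turns over slowly once laid down.

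Values are log2 signals of a probeset, which can be compared between arrays but not between genes. A gene is called higher or lower where its p-value from limma, adjusted by Benjamini-Hochberg over all 35557 probesets, is under 0.05. Array medians ran from 6.94 to 7.01, and correlations between arrays from 0.975 to 0.995. The MEFs + ALL + DMSO array stood apart on the leading principal component (30.8% of the variance), and MEFs + ALL + nilotinib replicate 2 on the next (18.9%). All 9 fibroblast markers were measured, with a median marker between 11.78 and 12.16 in each array. Their summed anti-logged signal was 43395 to 44901 in MEFs + ALL + nilotinib, 38891 in MEFs + ALL + DMSO, 39233 to 46081 in MEFs + nilotinib and 46844 to 47963 in MEFs + DMSO, highest in the last. Thy1 was called higher in MEFs + ALL + nilotinib over MEFs + DMSO, and in MEFs + ALL + DMSO over MEFs + DMSO Thy1 and Lum were called higher and Col1a2 lower. The MEFs + ALL + DMSO array also carried transcripts of lymphoblasts. In it 8 of the 9 pro-B and B lineage markers measured and 8 of 8 leukocyte markers were higher than in MEFs + DMSO, and the anti-logged signal summed over the B lineage markers was 5740, against 1130 to 1195 in MEFs + ALL + nilotinib, 1084 to 1172 in MEFs + nilotinib and 1120 to 1190 in MEFs + DMSO. In MEFs + ALL + nilotinib 0 of the 9 B lineage markers passed the test against MEFs + DMSO (0 at an unadjusted p under 0.05 too). The sum over the 8 leukocyte markers was 4324 to 5008 in MEFs + ALL + nilotinib, 11637 in MEFs + ALL + DMSO, 3637 to 4305 in MEFs + nilotinib and 3650 to 4048 in MEFs + DMSO, and 1 of the 8, not named here, was called higher in MEFs + ALL + nilotinib over MEFs + DMSO. That over 6 smooth muscle markers, genes of the other main source of elastin, was 28315 to 28748 in MEFs + ALL + nilotinib, 25854 in MEFs + ALL + DMSO, 27929 to 29341 in MEFs + nilotinib and 27207 to 27917 in MEFs + DMSO. No marker is at 0 on this scale. Because these are bulk samples, fewer cells of a type and less RNA per cell cannot be told apart.

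Elastin was the only one of the 8 genes called in MEFs + ALL + nilotinib over MEFs + DMSO, where 0.627% of all probesets were called and 0.124% were called lower. With dim probesets left out, 5.19% of those kept were called there, and of the 8 genes again only Eln. Its log2 signal was 9.60, 9.75 and 9.53 in MEFs + ALL + nilotinib, 9.10 in MEFs + ALL + DMSO, 10.09, 10.30 and 10.49 in MEFs + nilotinib, and 10.32, 10.47 and 10.47 in MEFs + DMSO. All 4 arrays of MEFs that had shared the medium with lymphoblasts thus lay below all 6 arrays of MEFs that had not. The share of all probesets with such a split was not computed. Eln fell in MEFs + ALL + nilotinib relative to MEFs + DMSO by 0.79 on the log2 scale (SE 0.11, 95% interval -1.04 to -0.54, adjusted p = 0.0292), and its mean anti-logged signal was 57.8% of that in MEFs + DMSO. The MEFs + ALL + DMSO array, the only one of its group, adds nothing to the spread, so the value and call were the same without it. The leukocyte sum given above was also higher in MEFs + ALL + nilotinib and the fibroblast sum lower. The median fibroblast marker was higher (11.96 to 12.16, against 11.89 to 11.92 in MEFs + DMSO), and of the 9 markers 4 differed upward and 5 downward. The part of these markers in the result was not tested. With 1 array left out, the call held without MEFs + ALL + nilotinib replicate 2 (adjusted p = 0.0474) and was lost without MEFs + ALL + nilotinib replicate 1 (0.128) or 3 (0.0907) and without MEFs + DMSO replicate 1 (0.0793), 2 (0.132) or 3 (0.126), while the log2 difference stayed between -0.86 and -0.74. The call was also lost where only the arrays of these 2 groups were fitted (adjusted p = 0.0763).

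Against MEFs + nilotinib, the other group without lymphoblasts, Eln in MEFs + ALL + nilotinib differed by -0.66 (SE 0.11, 95% interval -0.91 to -0.41). Its mean signal was 62.9% of that in MEFs + nilotinib, and every array lay below. This did not pass the test (adjusted p = 0.0759), but did where dim probesets were left out (0.0260), with trended and robust variances (0.0419) or with array weights (0.0290). None of the 8 genes was called in this comparison, with 2 at an unadjusted p under 0.05 (Eln and Fbln5), where 0.186% of probesets were called and 9.27% had such a p. The arrays did not overlap for 3 of the 8 (Mfap5 above, Eln and Fbln5 below), against 14.4% of all probesets. The comparisons share arrays, so they are not independent of each other.

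In the MEFs + ALL + DMSO array Eln was at its lowest. It fell by 1.32 relative to MEFs + DMSO (SE 0.15, 95% interval -1.67 to -0.97, adjusted p = 0.00104), to 40.0% of the mean signal there. In this comparison 10.3% of all probesets were called, and the median over all probesets was -0.07. For this lone array the test borrows the spread of the replicated groups, and the B lineage signal given above moved with it. Eln was lower in MEFs + ALL + nilotinib as well. The B lineage markers there summed to 1130 to 1195, against 1120 to 1190 in MEFs + DMSO. The leukocyte markers summed to 4324 to 5008, against 3650 to 4048. What part transcripts of lymphoblasts had in either result was not tested.

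Eln was not called in nilotinib alone. MEFs + nilotinib differed from MEFs + DMSO by -0.13 (SE 0.11, 95% interval -0.38 to 0.12, adjusted p = 0.685), and the arrays overlapped. MEFs + ALL + nilotinib was 0.53 above MEFs + ALL + DMSO (SE 0.15, 95% interval 0.17 to 0.88, adjusted p = 0.120). The difference between the ALL effect with nilotinib and the ALL effect with DMSO was 0.66 (SE 0.19, adjusted p = 0.111) and did not pass the test. The order of the group means was therefore MEFs + ALL + DMSO, MEFs + ALL + nilotinib, MEFs + nilotinib and MEFs + DMSO from low to high. No neighbouring groups in this order were told apart by the test (adjusted p = 0.120, 0.0759 and 0.685 in turn).

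**Figure D1:**
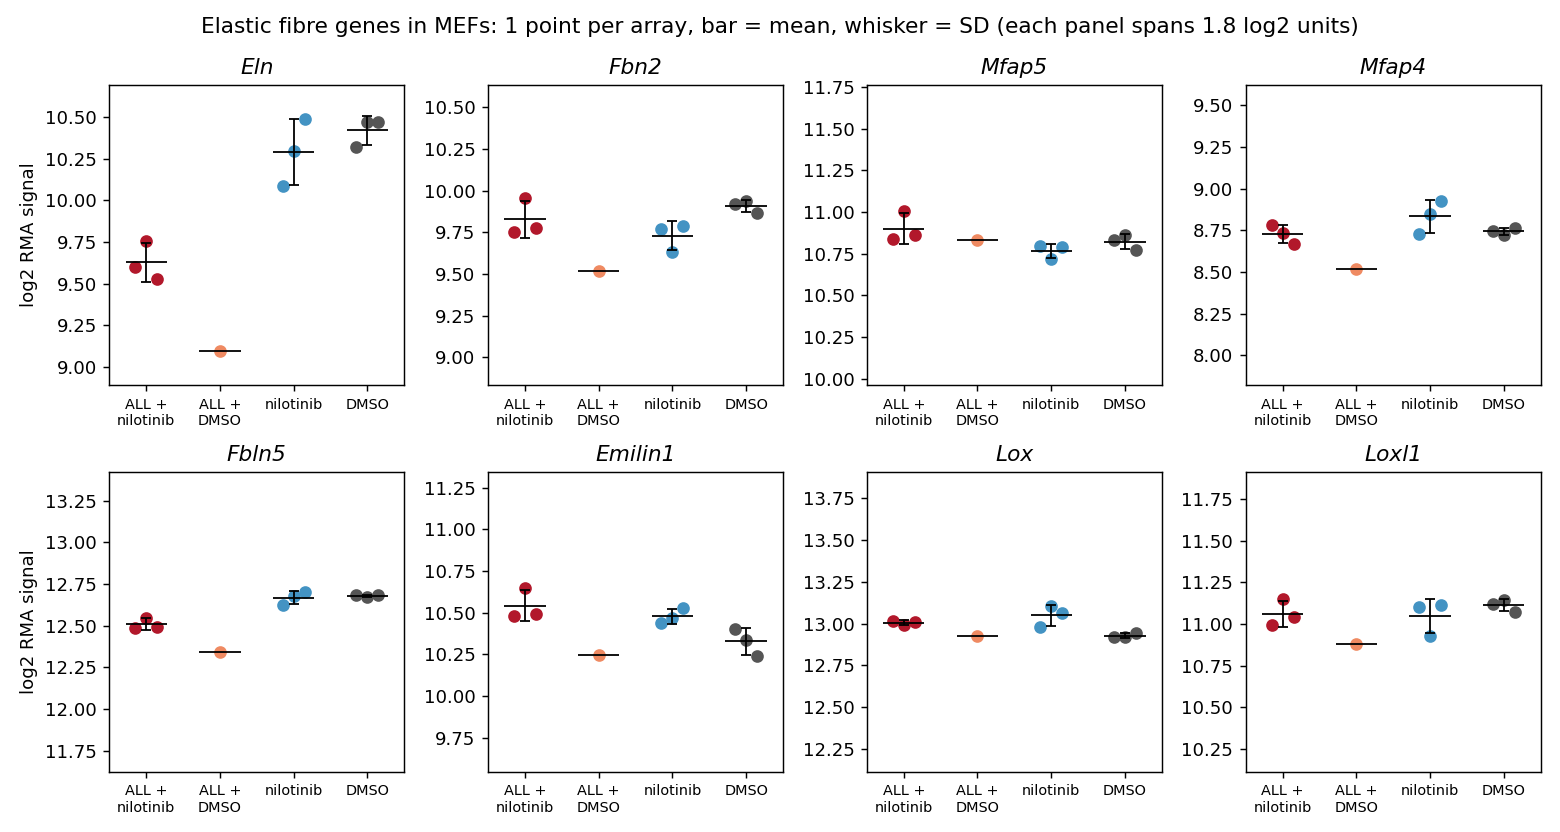
Log2 signal of the 8 elastic fibre genes measured (1 panel per gene), with 1 point per array and a bar at the mean of each of the 4 groups. For Eln the 4 arrays with ALL cells lie between 9.10 and 9.75, below the 6 without, which lie between 10.09 and 10.49; in each of the other panels the range over all 10 arrays is at most 0.44.

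The change of Eln was set beside that of the other 7 genes within each array. The log2 signal of Eln minus the mean of the others was -1.31, -1.25 and -1.38 in MEFs + ALL + nilotinib, -1.65 in MEFs + ALL + DMSO, -0.83, -0.61 and -0.50 in MEFs + nilotinib, and -0.63, -0.47 and -0.44 in MEFs + DMSO. The mean of the 7 others was 10.94 in MEFs + ALL + nilotinib, 10.75 in MEFs + ALL + DMSO, 10.94 in MEFs + nilotinib and 10.93 in MEFs + DMSO. The shift of Eln in MEFs + ALL + nilotinib was therefore of nearly the same size when read against its partner genes. Read against the mean of the 9 fibroblast markers, Eln stood at -2.16 to -1.91 in MEFs + ALL + nilotinib, -2.39 in MEFs + ALL + DMSO, -1.50 to -1.04 in MEFs + nilotinib and -1.30 to -1.07 in MEFs + DMSO, again with no overlap between arrays with and without lymphoblasts. These contrasts were computed after the fall of Eln was known and carry no test.

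**Figure D2:**
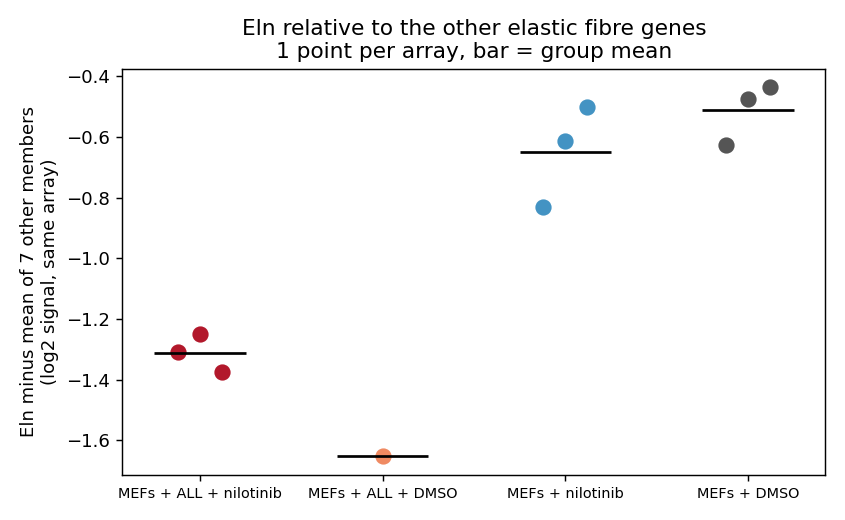
Log2 signal of Eln minus the mean log2 signal of the 7 other genes in the same array, with 1 point per array and a bar at each group mean. The 4 arrays with ALL cells lie between -1.65 and -1.25 and the 6 without between -0.83 and -0.44.

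None of the 3 microfibril genes measured was called in any comparison. Fbn2 encodes a fibrillin of the microfibril core that prevails in developing tissue. Its log2 signal was 9.75, 9.95 and 9.78 in MEFs + ALL + nilotinib, 9.51 in MEFs + ALL + DMSO, 9.77, 9.63 and 9.79 in MEFs + nilotinib, and 9.92, 9.94 and 9.87 in MEFs + DMSO. MEFs + nilotinib did not overlap with MEFs + DMSO, but the difference of -0.18 did not pass the test (SE 0.076, adjusted p = 0.436). MEFs + ALL + nilotinib overlapped with both groups without lymphoblasts and differed from MEFs + DMSO by -0.08 (adjusted p = 0.638). The MEFs + ALL + DMSO array was the lowest of the 10, at -0.39 relative to MEFs + DMSO (SE 0.11, adjusted p = 0.0535), just outside the threshold, and 4 alternative settings called it there (adjusted p between 0.0132 and 0.0397).

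Mfap5 encodes a small glycoprotein bound to fibrillin microfibrils. It measured 10.84, 11.01 and 10.86 in MEFs + ALL + nilotinib, 10.83 in MEFs + ALL + DMSO, 10.79, 10.72 and 10.79 in MEFs + nilotinib, and 10.83, 10.86 and 10.77 in MEFs + DMSO. Every MEFs + ALL + nilotinib array was above every MEFs + nilotinib array, by 0.13 on average (SE 0.067, adjusted p = 0.586), whereas it overlapped with MEFs + DMSO. Mfap4, whose product binds tropoelastin and fibrillin, measured 8.78, 8.74 and 8.67 in MEFs + ALL + nilotinib, 8.52 in MEFs + ALL + DMSO, 8.73, 8.85 and 8.93 in MEFs + nilotinib, and 8.74, 8.72 and 8.76 in MEFs + DMSO. Its replicated groups overlapped with each other. The 95% interval of the difference between MEFs + ALL + nilotinib and MEFs + DMSO was -0.07 to 0.23 for Mfap5 and -0.17 to 0.14 for Mfap4.

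Of the genes that place elastin on the scaffold, Fbln5 differed from MEFs + DMSO in the direction of Eln and, in MEFs + ALL + nilotinib, Emilin1 in the opposite one, by smaller amounts. Fbln5 encodes a fibulin that binds tropoelastin and cell surface integrins and is needed for elastic fibres in the mouse. Its log2 signal was 12.49, 12.55 and 12.49 in MEFs + ALL + nilotinib, 12.34 in MEFs + ALL + DMSO, 12.62, 12.67 and 12.70 in MEFs + nilotinib, and 12.68, 12.67 and 12.68 in MEFs + DMSO. As with Eln, all 4 arrays with lymphoblasts lay below all 6 without, a split whose share over all probesets was not computed. The difference between MEFs + ALL + nilotinib and MEFs + DMSO was -0.17 (SE 0.054, 95% interval -0.29 to -0.05, adjusted p = 0.190) and that from MEFs + nilotinib -0.16 (adjusted p = 0.404), neither past the test. In the MEFs + ALL + DMSO array Fbln5 was 0.34 lower than in MEFs + DMSO (log2 difference -0.34, SE 0.077, adjusted p = 0.0294) and was called, at 79.2% of the mean signal. The call was lost without MEFs + DMSO replicate 1 (adjusted p = 0.0714), 2 (0.0767) or 3 (0.0722).

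Emilin1 encodes a glycoprotein found where elastin meets the microfibrils. It measured 10.48, 10.65 and 10.49 in MEFs + ALL + nilotinib, 10.25 in MEFs + ALL + DMSO, 10.44, 10.47 and 10.53 in MEFs + nilotinib, and 10.40, 10.34 and 10.24 in MEFs + DMSO. The arrays of both groups with nilotinib lay above those of MEFs + DMSO. The difference was 0.21 in MEFs + ALL + nilotinib (SE 0.072, 95% interval 0.05 to 0.38, adjusted p = 0.209) and 0.15 in MEFs + nilotinib (SE 0.072, adjusted p = 0.474), and MEFs + ALL + nilotinib overlapped with MEFs + nilotinib. The MEFs + ALL + DMSO array lay within the range of MEFs + DMSO. Emilin1 did not pass the test in any comparison.

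The promoters of Fbln5 and Emilin1 are shown as those of the measured genes that the sequence table holds, 250 bases before and 50 from the start of the transcript, from RefSeq on GRCm38.p6 (chr12:101819070-101819369, minus strand, for the more upstream of 2 starts of Fbln5, and chr5:30913536-30913835, plus strand, for Emilin1). Of the 10 genes, 4 matched an entry of that table. Capitals mark matches, on either strand, to GGGCGG, the GC box, to CCAAT, the CCAAT box, to CAGAC, a Smad-binding sequence, to TATAAA, the TATA box, and to TGANTCA, a site of the factor family of Fos and Jun. No matches overlap in these stretches.
Fbln5: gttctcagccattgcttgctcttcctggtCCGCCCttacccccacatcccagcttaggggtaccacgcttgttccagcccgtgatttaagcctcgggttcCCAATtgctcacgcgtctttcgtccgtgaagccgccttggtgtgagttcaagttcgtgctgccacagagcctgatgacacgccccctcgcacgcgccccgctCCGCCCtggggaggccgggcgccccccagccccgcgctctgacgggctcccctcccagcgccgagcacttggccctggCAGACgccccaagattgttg
Emilin1: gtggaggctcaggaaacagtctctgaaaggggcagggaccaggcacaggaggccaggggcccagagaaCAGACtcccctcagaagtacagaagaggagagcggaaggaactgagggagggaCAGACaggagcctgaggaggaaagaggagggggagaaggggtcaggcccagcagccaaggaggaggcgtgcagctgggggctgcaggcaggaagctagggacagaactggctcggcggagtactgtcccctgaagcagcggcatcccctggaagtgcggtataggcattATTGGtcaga
The Fbln5 stretch had a GC content of 65.7% and held GGGCGG on the other strand at -221 and -48, CCAAT at -150 and CAGAC at 31, counted from the start of the transcript. That of Emilin1 had a GC content of 61.7% and held CAGAC at -182 and -129 and CCAAT on the other strand at 41. Neither held a TATAAA, and neither a TGANTCA. Of all 32851 promoters in the table, 35.7% held GGGCGG, 37.4% CCAAT, 49.6% CAGAC, 13.6% TATAAA and 7.81% TGANTCA, and the median GC content was 52.7%. These matches describe the letters only.

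The 2 genes of cross-linking enzymes were not called in any comparison. Lox, the lysyl oxidase that acts on both elastin and collagen, measured 13.02, 12.99 and 13.01 in MEFs + ALL + nilotinib, 12.93 in MEFs + ALL + DMSO, 12.98, 13.10 and 13.06 in MEFs + nilotinib, and 12.92, 12.92 and 12.94 in MEFs + DMSO. Arrays of both groups with nilotinib were above all MEFs + DMSO arrays, by 0.08 in MEFs + ALL + nilotinib (SE 0.056, adjusted p = 0.532) and 0.12 in MEFs + nilotinib (SE 0.056, adjusted p = 0.462). Loxl1, a related oxidase that in the mouse is needed to renew elastic fibres, measured 11.00, 11.15 and 11.04 in MEFs + ALL + nilotinib, 10.88 in MEFs + ALL + DMSO, 11.10, 10.93 and 11.11 in MEFs + nilotinib, and 11.12, 11.14 and 11.07 in MEFs + DMSO. Its replicated groups overlapped. The 95% interval of the difference between MEFs + ALL + nilotinib and MEFs + DMSO ran from -0.05 to 0.21 for Lox and from -0.22 to 0.12 for Loxl1.

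**Figure D3:**
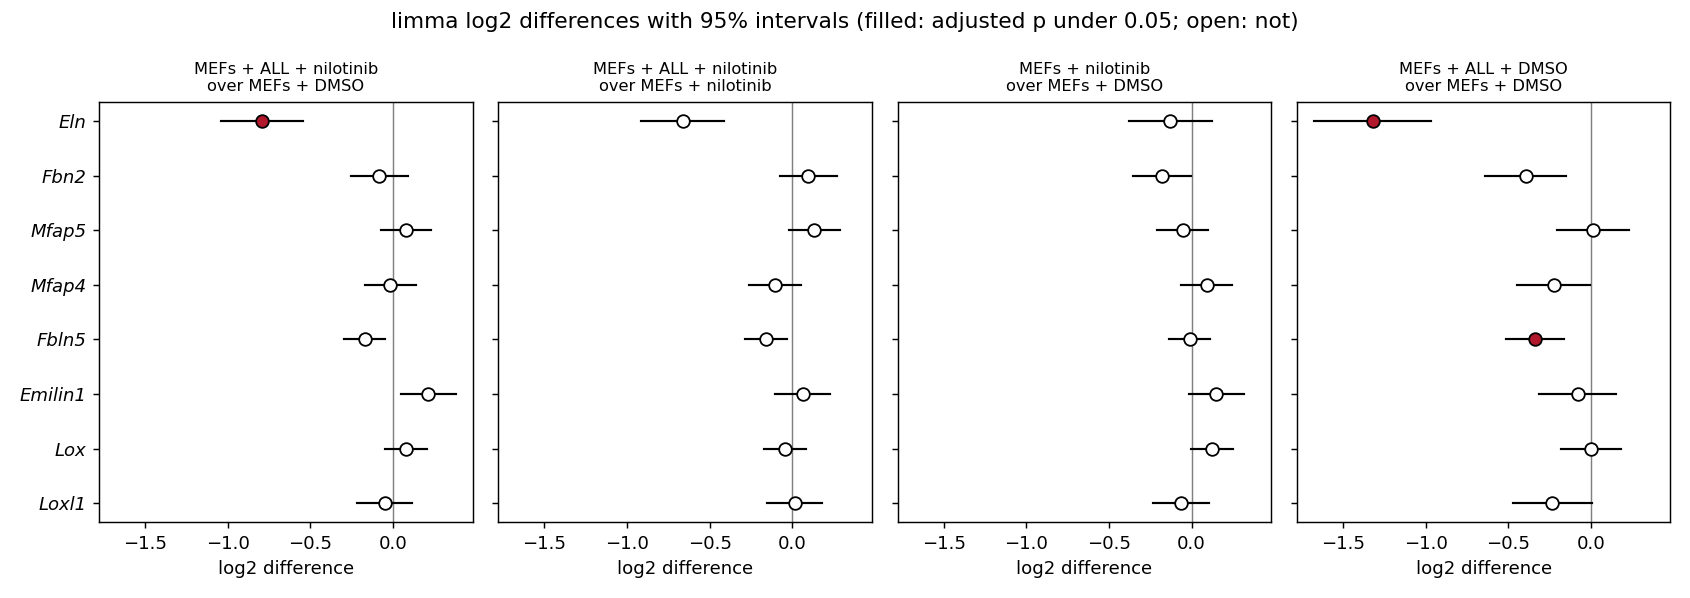
Log2 difference of each of the 8 genes with its 95% interval from limma, in 1 panel per comparison. Eln has the largest distance from 0 in MEFs + ALL + nilotinib over MEFs + DMSO (-0.79), in MEFs + ALL + nilotinib over MEFs + nilotinib (-0.66) and in MEFs + ALL + DMSO over MEFs + DMSO (-1.32), while in MEFs + nilotinib over MEFs + DMSO the 8 genes lie between -0.18 and 0.15.

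Counted over the 8 genes, MEFs + ALL + nilotinib over MEFs + DMSO had 1 called lower (Eln) and 0 higher, with a median difference of -0.03 beside -0.00416 over all probesets. At an unadjusted p under 0.05 there were 3 (Eln, Fbln5 and Emilin1), against 16.2% of all probesets. The arrays did not overlap for 4 of the 8, of which Emilin1 and Lox lay above and Eln and Fbln5 below, against 24.7% of all probesets. MEFs + nilotinib over MEFs + DMSO had 0 called (1 at an unadjusted p under 0.05, Fbn2), with a median of -0.03, and 0% of all probesets were called there, 11.2% having an unadjusted p under 0.05. The arrays did not overlap for 3 of the 8 (Emilin1 and Lox above, Fbn2 below), against 20.6% of all probesets. MEFs + ALL + DMSO over MEFs + DMSO had 2 called lower (Eln and Fbln5) and a median of -0.23, against 3.59% of probesets called lower and a median of -0.07 over all. At an unadjusted p under 0.05 there were 4 (Eln, Fbn2, Mfap4 and Fbln5), against 27.9% of all probesets, and the array lay outside the range of MEFs + DMSO, always below it, for 5 of the 8, against 75.4%. The array of MEFs + ALL + DMSO was the lowest of the 10 for 5 of the 8 genes (62.5%), against 25.2% of all probesets. The 8 genes all have signals above that of the median probeset. With dim probesets left out, 3 of the 8 were called in MEFs + ALL + DMSO over MEFs + DMSO (Eln, Fbn2 and Fbln5). Of the probesets kept, 22.4% were called there. MEFs + ALL + nilotinib over MEFs + ALL + DMSO had 0 called (3 at an unadjusted p under 0.05, Eln, Fbn2 and Emilin1), with 4.34% of probesets called and 17.7% at such a p. There every MEFs + ALL + nilotinib array was above the MEFs + ALL + DMSO array for all 8 genes measured, against 39.5% of all probesets. The median difference was 0.20, beside 0.07 over all probesets. All 3 arrays were likewise above for 6 of 6 smooth muscle markers, 5 of 9 fibroblast markers and 21 of 24 other elastic fibre and microfibril genes. The pattern was thus not particular to the 8 genes, and the MEFs + ALL + DMSO array carried transcripts of lymphoblasts. For the difference of the ALL effect between nilotinib and DMSO, 0 of the 8 were called (2 at an unadjusted p under 0.05, Eln and Fbn2), against 3.95% of probesets called and 19.5% at such a p.

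The range over the 9 arrays of the replicated groups was 0.96 for Eln and 0.41 for Emilin1, and lay between 0.19 (Lox) and 0.32 (Fbn2) for the other 6 genes. Among 11316 genes above the median signal, those whose deviations from the MEFs + DMSO mean came closest to those of Eln over the 10 arrays were Chac1 (root mean square difference 0.156), Nrep (0.218), Chodl (0.220), Trib3 (0.226) and Col10a1 (0.226). Chac1, an enzyme that breaks down glutathione, and Trib3, a pseudokinase, are both induced by the factor ATF4 in the amino acid response, and Col10a1 encodes a collagen of hypertrophic cartilage. The log2 difference between MEFs + ALL + nilotinib and MEFs + DMSO was -0.89 for Chac1, -0.52 for Nrep, -0.82 for Chodl, -0.68 for Trib3 and -0.61 for Col10a1, and that of the MEFs + ALL + DMSO array was between -1.60 (Col10a1) and -0.81 (Trib3). For Emilin1, the gene with the next widest range, the closest were Ltbr (0.0277), Ccdc124 (0.0342), Spire2 (0.0406), Man2b2 (0.0457) and Shroom4 (0.0462). These genes were picked for their likeness, which is a description over 10 arrays.

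**Figure D4:**
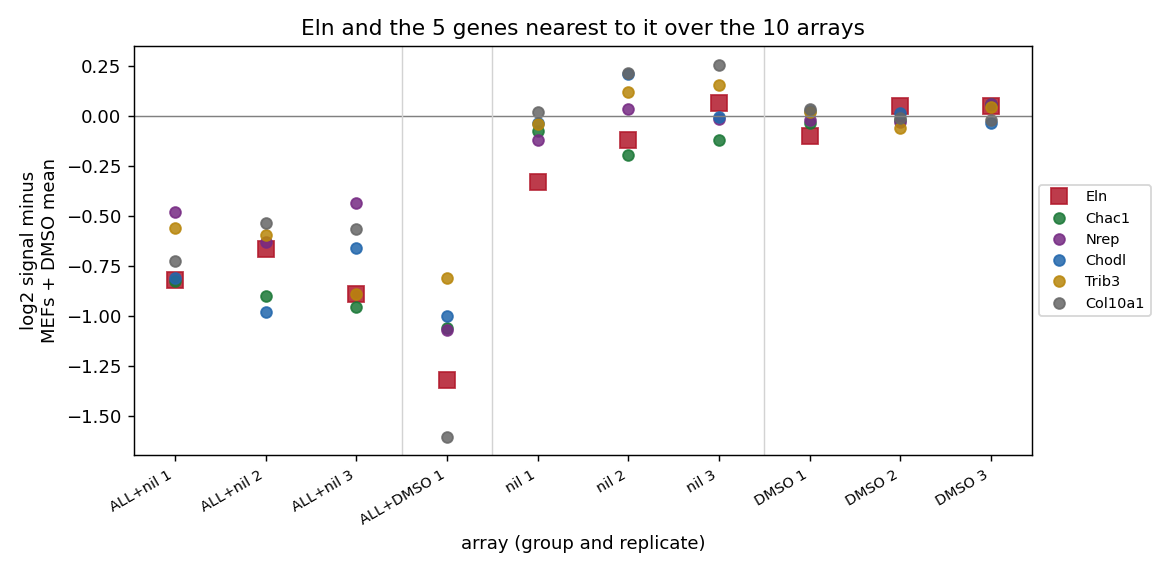
Deviation of log2 signal from the MEFs + DMSO mean in each of the 10 arrays for Eln and the 5 genes with the closest pattern. Eln lies lowest in the MEFs + ALL + DMSO array, at -1.32, and the 5 other genes lie at or below -0.81 there.

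Beyond the 8 genes, 24 of 26 other genes of elastic fibres and microfibrils were measured, and 0 of the 24 passed the test in MEFs + ALL + nilotinib over MEFs + DMSO. At an unadjusted p under 0.05 there were 8, against 16.2% of all probesets, and the median was 0.03. Fbln1, a fibulin found within elastic fibres, measured 8.18, 8.36 and 8.11 in MEFs + ALL + nilotinib, 7.94 in MEFs + ALL + DMSO, 7.70, 7.79 and 7.95 in MEFs + nilotinib, and 7.80, 7.78 and 7.76 in MEFs + DMSO. All its MEFs + ALL + nilotinib arrays were above the 6 arrays without lymphoblasts, by 0.44 relative to MEFs + DMSO (adjusted p = 0.0764) and 0.40 relative to MEFs + nilotinib (adjusted p = 0.178). Adamtsl5, a microfibril-associated protein, differed from MEFs + DMSO by 0.33 (adjusted p = 0.123). Ltbp3 and Ltbp2, which encode latent TGF-beta binding proteins of the fibrillin superfamily, differed by -0.51 (adjusted p = 0.317) and -0.32 (adjusted p = 0.254). In MEFs + nilotinib relative to MEFs + DMSO, without lymphoblasts, they differed by -0.61 and -0.26, neither called. In the MEFs + ALL + DMSO array 2 of the 24 were called, Ltbp2 (-0.73, adjusted p = 0.0331) and Adamts10 (-0.60, adjusted p = 0.00829), a protease of microfibrils that was named after its value was seen. Of all probesets 3.59% were called lower there. The median of the list was -0.21, beside -0.07 over all probesets.

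TGF-beta, which microfibrils hold in latent form, is a known inducer of elastin in fibroblasts. Of 13 genes of its ligands, receptors, Smads and targets 12 were measured, and 0 passed the test in MEFs + ALL + nilotinib over MEFs + DMSO (4 at an unadjusted p under 0.05, against 16.2% of all probesets, median 0.01). Tgfbr3, the co-receptor betaglycan, measured 7.93, 8.05 and 8.03 in MEFs + ALL + nilotinib, 8.09 in MEFs + ALL + DMSO, 7.59, 7.32 and 7.49 in MEFs + nilotinib, and 7.63, 7.69 and 7.60 in MEFs + DMSO. It ran opposite to Eln, with all 4 arrays with lymphoblasts above all 6 without (share over all probesets not computed). The difference from MEFs + DMSO was 0.36 in MEFs + ALL + nilotinib (adjusted p = 0.0972) and 0.45 in MEFs + ALL + DMSO (adjusted p = 0.0427), and only the last was called, in a comparison where 10.3% of all probesets were. Smad7, an inhibitor of TGF-beta signals, differed by -0.30 (adjusted p = 0.265), the receptor gene Tgfbr2 by 0.22 (adjusted p = 0.136) and the ligand gene Tgfb2 by -0.20 (adjusted p = 0.249) in MEFs + ALL + nilotinib relative to MEFs + DMSO. In MEFs + nilotinib relative to MEFs + DMSO, without lymphoblasts, they differed by -0.25, 0.10 and -0.13 in turn, none called.

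Elastin is degraded by metalloproteinases, cathepsins and elastase, which TIMPs and other inhibitors restrain. All 15 genes of this list were measured, and 0 passed the test in MEFs + ALL + nilotinib over MEFs + DMSO (4 at an unadjusted p under 0.05, against 16.2% of all probesets, median 0.02). Timp1 measured 12.78, 12.61 and 12.76 in MEFs + ALL + nilotinib, 12.63 in MEFs + ALL + DMSO, 12.56, 12.64 and 12.54 in MEFs + nilotinib, and 12.36, 12.37 and 12.37 in MEFs + DMSO. It lay 0.35 above MEFs + DMSO in MEFs + ALL + nilotinib (adjusted p = 0.0647) and 0.21 in MEFs + nilotinib (adjusted p = 0.368), with no overlap of either group with MEFs + DMSO. Mmp14, a collagenase anchored in the membrane, was at -0.47 (adjusted p = 0.116), the macrophage elastase gene Mmp12 at 0.20 (adjusted p = 0.576) and the cathepsin gene Ctss at -0.18 (adjusted p = 0.491). In MEFs + nilotinib over MEFs + DMSO, without lymphoblasts, they were at -0.36, 0.18 and -0.11 in turn, none called. In the MEFs + ALL + DMSO array 3 of the 15 were called lower, Mmp14 (-0.79, adjusted p = 0.0190), Mmp9 (-0.42, adjusted p = 0.0215) and Mmp2 (-0.36, adjusted p = 0.0222), Mmp9 and Mmp2 being gelatinases that were named after their values were seen. Of all probesets 3.59% were called lower there.

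Cells bind elastin and its partners through integrins and through a receptor complex built around a splice form of beta-galactosidase. All 8 genes of this list were measured, and 0 passed the test in MEFs + ALL + nilotinib over MEFs + DMSO (3 at an unadjusted p under 0.05, against 16.2% of all probesets, median 0.02). Itga5 was at 0.27 (adjusted p = 0.113), Itgb3 at -0.19 (adjusted p = 0.271), Glb1 at 0.15 (adjusted p = 0.266) and Ctsa at 0.11 (adjusted p = 0.371). In MEFs + nilotinib over MEFs + DMSO, without lymphoblasts, they were at 0.10, -0.21, 0.15 and 0.07 in turn. None of the genes of these 4 lists was called in MEFs + ALL + nilotinib over MEFs + nilotinib (11 of 59 at an unadjusted p under 0.05, against 9.27% of all probesets) or in MEFs + nilotinib over MEFs + DMSO (7 of 59, against 11.2%). In MEFs + ALL + nilotinib over MEFs + ALL + DMSO 2 of the 59 were called, both higher, Loxl3 (0.43, adjusted p = 0.0241), a relative of Loxl1, and Mmp9 (0.48, adjusted p = 0.0175), against 4.34% of all probesets called. Both were named after their values were seen.

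**Figure D5:**
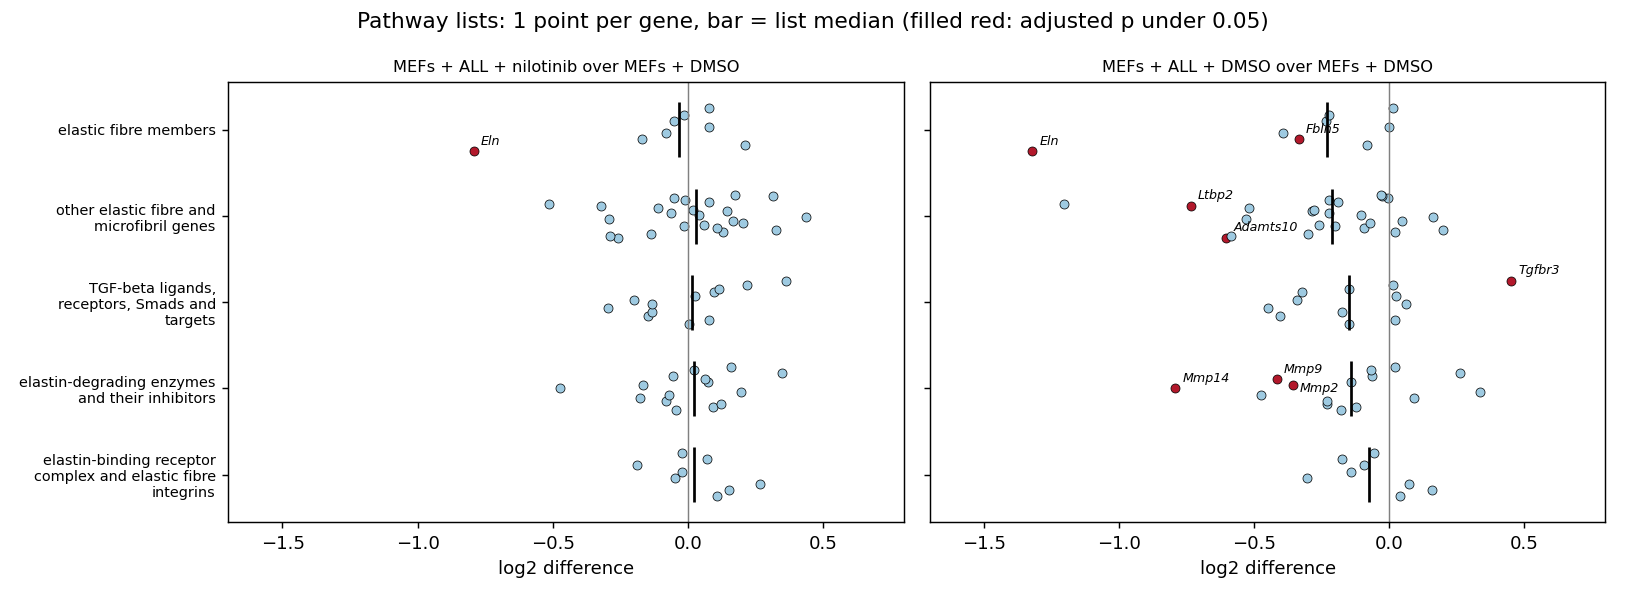
Log2 difference of each measured gene (1 point per gene, red and named where called, with a bar at the median of the list) in the elastic fibre genes and in 4 lists of related genes, for MEFs + ALL + nilotinib over MEFs + DMSO and for MEFs + ALL + DMSO over MEFs + DMSO. In the panel of MEFs + ALL + nilotinib the gene called is Eln (-0.79), and in the panel of MEFs + ALL + DMSO those called lie between -1.32 (Eln) and 0.45 (Tgfbr3).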

How the data were processed

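RNA of 10 dishes was measured on Mouse Gene 1.0 ST arrays. The values are log2 probeset signals deposited by the authors, RMA-normalized per the study. The study's methods name Partek and Ingenuity Systems for the analysis, and the processing notes name Partek, without a version. Values ran from 2.09 to 15.0, as log2 signals do, and precision is limited by the number of arrays. Genes were named through the platform annotation, from the 21789 probesets with 1 symbol.

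A linear model with 4 group means was fitted to all 10 arrays (limma 3.58.1, lmFit and eBayes, in R 4.3.3), with Benjamini-Hochberg adjustment over all 35557 probesets. Folds in percent are ratios of mean anti-logged signals. The fit was tried on simulated data with independent noise and no array effects. Recovery of added changes was read only in MEFs + ALL + nilotinib over MEFs + DMSO. The simulation therefore does not bear on comparisons that use the MEFs + ALL + DMSO array. The genes and lists were chosen with earlier results of these data known, so the fall of Eln is not independent support. Named are all elastic fibre genes, up to 4 genes of each other list with the largest difference in MEFs + ALL + nilotinib over MEFs + DMSO, and the 5 genes nearest in pattern to Eln and Emilin1. Promoter sequences are from RefSeq (GRCm38.p6), which is not tied to the build of the array. Alternatives were other scalings, a filter on dim probesets, trended variances, array weights, fewer samples, a replicate block and single arrays left out.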

Additional observations from a re-analysis of the deposited data

How the results depend on the processing

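Over single genes and alternative settings, 14 values turned direction, 10 lost and 7 gained a call. Averaging a gene's probesets and leaving out the MEFs + ALL + DMSO array could change nothing by construction, and the ratio of linear means has no test, so these do not bear on stability. The fall of Eln in MEFs + ALL + nilotinib over MEFs + DMSO kept its direction, with adjusted p between 0.00614 and 0.0928 with all replicates kept and between 0.0474 and 0.132 with a single array left out. Members called there were 0, in place of 1, where only the groups compared were fitted (Eln adjusted p = 0.0763, and 12 probesets called in place of 223), and between 0 and 1 with single arrays left out (8 to 99 probesets). More probesets were called with dim ones left out (923 of 17779), trended variances (476) and array weights (1263, with the lowest weight, 0.277, on MEFs + ALL + nilotinib replicate 2). Against MEFs + nilotinib, 1 (Eln) was called, in place of 0, with dim probesets left out, with trended variances and with array weights. For the difference of the ALL effect, 1 (Fbn2) was called, in place of 0, with dim probesets left out and with array weights. In MEFs + ALL + DMSO over MEFs + DMSO, 1 (Eln, adjusted p between 0.00305 and 0.00514) was called, in place of 2, with any MEFs + DMSO array left out. The cause of these changes was not tested. The values that turned direction were all near 0 and uncalled. They were Fbln5 in MEFs + nilotinib over MEFs + DMSO (0.0084 with arrays centred on their medians, -0.0293 to 0.0108 with an array left out), Lox in MEFs + ALL + DMSO over MEFs + DMSO (0.0123 centred, 0.0180 with quantile normalization, 0.0031 with weights, -0.0054 to 0.0077 with an array left out) and in MEFs + ALL + nilotinib over MEFs + nilotinib (0.0060 with quantile normalization), Loxl1 in MEFs + ALL + nilotinib over MEFs + nilotinib (-0.0201 with weights, -0.0462 to 0.0471 with an array left out), Mfap4 in MEFs + ALL + nilotinib over MEFs + DMSO (0.0173 centred, -0.0412 to 0.0152 with an array left out) and Mfap5 in MEFs + ALL + DMSO over MEFs + DMSO (-0.0435 with quantile normalization, -0.0124 to 0.0328 with an array left out).

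With the replicate block, 0 members were called in MEFs + ALL + nilotinib over MEFs + DMSO (Eln adjusted p = 0.0928, 8 probesets in all). Same-numbered arrays deviated together in 2 of 9 pairs of arrays (correlations -0.29 to 0.24), and differently numbered arrays in 7 of 18 (-0.26 to 0.39). Deviations from means of so few arrays depend on each other, so this cannot decide whether the numbers pair the samples.

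With 3 arrays a group, and 1 of MEFs + ALL + DMSO, differences as small as those of most elastic fibre genes could not be told from 0. The MEFs + ALL + DMSO array cannot be checked against another of its group. Fits of only the groups compared, or with a block, were not made for comparisons that use it.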

Other observations

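The genes of a pair of latent TGF-beta binding proteins varied within MEFs + nilotinib. Ltbp3 measured 9.93, 10.23 and 10.23 in MEFs + ALL + nilotinib, 9.44 in MEFs + ALL + DMSO, 10.58, 9.52 and 9.98 in MEFs + nilotinib, and 10.63, 10.62 and 10.67 in MEFs + DMSO. Ltbp2 measured 11.60, 11.77 and 11.73 in MEFs + ALL + nilotinib, 11.29 in MEFs + ALL + DMSO, 12.03, 11.49 and 11.76 in MEFs + nilotinib, and 12.05, 12.03 and 11.99 in MEFs + DMSO. For both genes MEFs + nilotinib replicate 2 was the lowest of its group and replicate 1 the highest, and the MEFs + DMSO arrays lay close together. Mmp14, Smad7 and Tgfb2 had the same lowest and highest replicate in MEFs + nilotinib, and Lox and Mmp12 had the reverse. The order is thus not particular to this pair.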
